A study of Rattus norvegicus with 11 samples.

Results

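The genes described here are 8 genes of the fibrous extracellular matrix, taken from 32623 gene IDs counted in rat spinal cord. They were chosen by a list of Ensembl IDs with gene names: Col1a1 (ENSRNOG00000003897), Col1a2 (ENSRNOG00000011292), Col3a1 (ENSRNOG00000003357), Fn1 (ENSRNOG00000014288), Dcn (ENSRNOG00000004554), Lum (ENSRNOG00000004610), Sparc (ENSRNOG00000012840) and Postn (ENSRNOG00000012660). All 8 IDs were in the count table, and all 8 were among the 15758 genes left after genes with low counts were removed. The names come from that list: the gene table at hand carries 0 Ensembl IDs, so no name could be checked against it.

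Poly(A)-selected RNA of the ipsilateral spinal cord of adult male rats weighing 350 to 400 g was sequenced in 11 libraries of 3 groups. The group Naive (3 libraries, naive 1 to 3) is given neither drug nor electrode in the study's design. The group PTX+Sham SCS (5 libraries, sham 1 to 5) had paclitaxel, a cancer drug that stabilises microtubules and can leave a painful neuropathy, and an electrode for spinal cord stimulation (SCS) that was not used. The group PTX+SCS (3 libraries, SCS 1, SCS 2 and SCS 5) received the drug and electrode and was stimulated at 50 Hz with 0.2 ms pulses, at 80% of the quantity the labels call MoT. Each paclitaxel injection was 1.5 mg/kg into the peritoneum, and the injections fell on day 1, day 3, day 5 and day 7. Drug and electrode always came together, so their parts in any difference from naive rats cannot be told apart, and the rat strain is not given in the sources used here.

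In connective tissue, fibroblasts secrete type I and type III collagen chains that wind into triple helices and assemble into fibrils. Fibronectin guides that assembly at the cell surface, small leucine-rich proteoglycans such as decorin and lumican bind the fibrils and set their width, and the matricellular proteins SPARC and periostin act between matrix and cells. In the healthy spinal cord fibrillar collagen lies mainly in the meninges and around blood vessels, while Sparc is also made by glia and endothelial cells. After injury, fibroblasts of the meninges and vessels can build a fibrotic scar, and TGF-beta signalling through SMAD proteins is a known inducer of these genes.

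Col1a1, Col3a1, Fn1 and Sparc had their 4 highest values in the 3 stimulated libraries and in 1 sham library, sham 5. Fn1, Sparc and Postn were higher in the stimulated than in the naive libraries, by 2.05-fold, 1.35-fold and 2.43-fold, and passed the test across all genes. Of all tested genes, 14.9% passed in either direction and 10.1% passed upward. Over 18 alternative fits Sparc passed in 15, Postn in 9 and Fn1 in 6. None of the 8 passed in sham against naive or in stimulated against sham libraries, where 0.14% and 3.57% of all tested genes did, so 0 of 8 is near the background there. In the last comparison the outcome turned on sham 5: without it Col3a1, Fn1 and Sparc were higher in the stimulated libraries and passed. In that fit 6.7% of all tested genes passed in either direction. Sham 5 was singled out because it is high in most of these same genes. The calls without it therefore describe the other libraries and are no independent support. Dcn, Lum, Col1a1 and Col1a2 passed in no comparison of all 11 libraries. In tissue RNA, more cells of a type and more RNA per cell cannot be told apart.

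Promoter sequence was at hand for 4 of the 8 genes (Col1a2, Lum, Sparc and Postn), from RefSeq on the build GRCr8. The Sparc and Postn stretches are shown because both genes passed in stimulated against naive libraries, and the Col1a2 stretch because that gene did not. Each is written 5′ to 3′ on the strand of the gene. Capitals mark matches to 3 motifs, searched on both strands, so a match can also read as the reverse complement; no matches overlap. The TATA box, at which many transcripts are started, was searched as TATAAA. The CCAAT box, known from collagen promoters, was searched by the letters of its name. The SMAD element, through which TGF-beta signalling acts, was searched as CAGAC.
Sparc, chr10:40038817-40039066, minus strand, all 250 bases before the start: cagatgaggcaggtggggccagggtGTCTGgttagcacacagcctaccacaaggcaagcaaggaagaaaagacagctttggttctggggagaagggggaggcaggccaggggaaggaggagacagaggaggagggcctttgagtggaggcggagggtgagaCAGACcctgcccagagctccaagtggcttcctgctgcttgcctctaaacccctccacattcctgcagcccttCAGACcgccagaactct
Postn, chr2:140678005-140678034, plus strand, 30 bases around its TATAAA: agcccagagctcTATAAAttcagctctcta
Col1a2, chr4:33518307-33518416, plus strand, 110 of the 250 bases before the start: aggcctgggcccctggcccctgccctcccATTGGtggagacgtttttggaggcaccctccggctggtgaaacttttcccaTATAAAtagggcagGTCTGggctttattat

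In the 250 bases before the RefSeq start, TATAAA was found in Col1a2 and Postn, and in 12.9% of all 33469 promoters. It lay 170 bases before the start in Col1a2 and 44 bases before it in Postn. The CCAAT box was found in Col1a2 and Lum and in 34% of all promoters. CAGAC was found in all 4, with 3 matches each in Sparc and Lum, 2 in Col1a2 and 1 in Postn, and in 42.9% of all promoters. The Col1a2 stretch shown is the end of the window farthest from the start. Its CAGAC match 23 bases before the start is therefore not shown. The start used for Lum and Postn lies inside the gene's listed span, so their windows can hold transcribed sequence. Sparc, which passed in stimulated against naive libraries, and Lum, which did not, had the same number of CAGAC matches. These matches are letters in a window, not measured binding sites.

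Total counts ran from 11243288 to 56775931 per library. Levels are given as CPM, counts divided by the scaled library size, which are not adjusted for transcript length and so are not compared between genes. Sham 5 was high among the sham libraries for most of these genes, by gaps that differed from gene to gene. It had the highest value of the sham group in 7 of the 8 genes (all but Lum), while over all tested genes it was the highest sham library in 24.2%. In Lum sham 1 was the highest. The gap of sham 5 to the next sham library is given as a share of the sham range of log2 CPM. It was 0.914 for Fn1, 0.633 for Postn, 0.523 for Col3a1 and 0.38 for Sparc. For Col1a1, Col1a2 and Dcn it was 0.321, 0.201 and 0.036. The label of sham 5 puts it in the sham group, where it was kept. Over all genes, the sample quality weights that limma assigns (lower for libraries that fit the group means less well) were lowest in SCS 2 (0.487), sham 5 (0.569), SCS 1 (0.685) and SCS 5 (0.942), against 1.07 to 1.57 in the other 7 libraries. The 4 libraries with the highest Col1a1, Col3a1, Fn1 and Sparc are thus also those with the lowest weights over all genes, and the part of this in the results was not tested.

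Col1a1 encodes the alpha-1 chain of type I collagen, the main fibril of scar and dura. Its level was 98.5, 93.2 and 103.5 CPM in naive 1 to 3, then 89.9, 132.1, 71.7, 104.9 and 176.2 CPM in sham 1 to 5, and 157.0, 152.5 and 133.0 CPM in SCS 1, SCS 2 and SCS 5. Every stimulated library was above every naive library, whereas the sham libraries ran from below the naive group to above the stimulated group. The group means were 98.4 ± 5.2 CPM (SD, n = 3), 114.9 ± 40.8 CPM (SD, n = 5) and 147.5 ± 12.7 CPM (SD, n = 3). The log2 fold change of stimulated against naive libraries was 0.58 ± 0.28 (SE, edgeR adjusted p = 0.208), which did not pass.

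Col3a1 encodes type III collagen, which forms thinner fibrils together with type I and is prominent in early scar. Naive 1 to 3 held 91.1, 85.4 and 87.6 CPM, sham 1 to 5 held 76.5, 109.2, 69.5, 90.0 and 179.3 CPM, and SCS 1, SCS 2 and SCS 5 held 238.8, 168.5 and 139.8 CPM. The naive libraries lay close together, 4 of the 5 sham libraries lay around them, and sham 5 lay among the stimulated libraries. Col3a1 had a log2 change of 1.05 ± 0.35 (SE, edgeR adjusted p = 0.0831) in stimulated against naive libraries and 0.80 ± 0.31 (SE, edgeR adjusted p = 0.2) in stimulated against sham libraries. Neither passed in edgeR, but stimulated against naive passed with all 11 libraries in DESeq2 (adjusted p = 0.0235) and in limma-voom with quality weights (adjusted p = 0.0102), and in the edgeR fit of those 2 groups alone (adjusted p = 0.0198). Without sham 5, singled out for its high values in these genes, both passed in edgeR, at 1.05 (edgeR adjusted p = 0.0138) and 1.08 (edgeR adjusted p = 0.0226).

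The row listed as Col1a2, the alpha-2 chain that joins Col1a1 in the type I collagen helix, behaved unlike the other collagen genes. It held 9.23, 2.08 and 3.98 CPM in naive 1 to 3, 6.18, 1.65, 5.79, 6.87 and 9.78 CPM in sham 1 to 5, and 6.82, 6.58 and 11.03 CPM in SCS 1, SCS 2 and SCS 5. All 3 groups overlapped, and naive 1 was above 4 of the 5 sham libraries. The SD of its log2 CPM among naive libraries was 1.06, at the 99.2nd percentile of all tested genes, where Col1a1 had 0.08. Its lowest count was 26 reads, in sham 2, with a counting error of 19.6%. Its fold changes were 0.30 ± 0.56, 0.42 ± 0.54 and 0.72 ± 0.61 (log2, SE) in the comparisons of sham with naive, stimulated with sham and stimulated with naive libraries, and none passed (edgeR adjusted p = 0.919, 0.73 and 0.477).

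**Figure D1:**
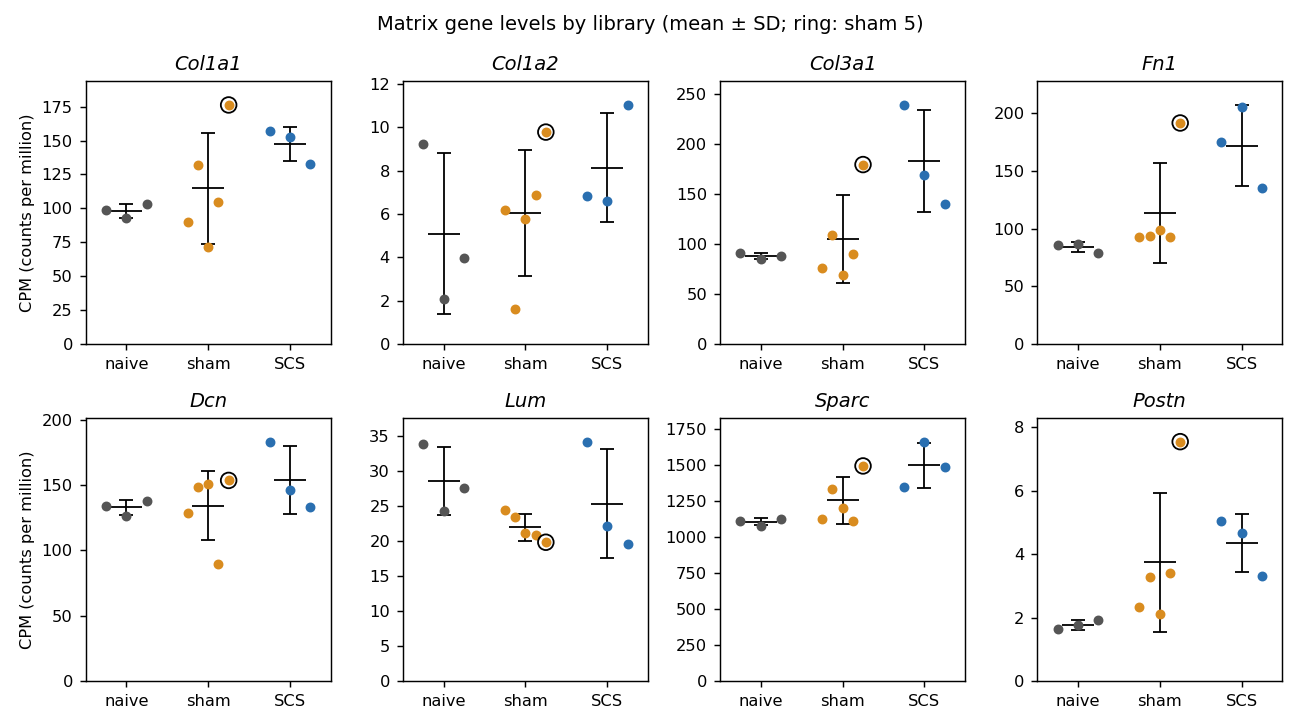
Level of each gene in CPM (vertical axes, from 0) in every library, with 1 point per library, grouped as naive, sham and SCS; bars give the mean and SD, and the ring marks sham 5. Sham 5 is the highest sham library in 7 of the 8 panels, and the naive points of Col1a1, Col3a1, Fn1, Sparc and Postn all lie below the SCS points.

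Fn1 encodes fibronectin, the adhesive glycoprotein on which collagen fibrils are laid down. Its naive libraries held 85.8, 86.9 and 79.2 CPM, and sham 1 to 4 held 93.0, 93.7, 98.4 and 92.5 CPM, a mean of 94.4 ± 2.7 CPM (SD, n = 4). Sham 5 held 191.4 CPM, 2.03 times that mean, and the stimulated libraries held 174.6, 205.6 and 135.5 CPM. All 5 sham libraries were above all 3 naive libraries by a small step, and sham 5 alone reached the stimulated range. Fn1 rose in stimulated against naive libraries, with a log2 change of 1.03 ± 0.30 (SE, edgeR adjusted p = 0.0499), at the edge of the threshold.

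The Fn1 call was lost when any naive library, SCS 1, SCS 2 or any of sham 1 to 4 was left out (edgeR adjusted p = 0.0616 to 0.185), while the log2 fold change stayed between 0.90 and 1.08. In stimulated against sham libraries Fn1 stood at 0.59 ± 0.26 (SE, edgeR adjusted p = 0.25). Without sham 5, singled out for its high values in these genes, that difference was 0.86 (edgeR adjusted p = 0.00177).

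Sparc encodes a collagen-binding matricellular protein that is also abundant in glia. Naive 1 to 3 held 1116, 1080 and 1126 CPM, sham 1 to 5 held 1128, 1336, 1205, 1112 and 1496 CPM, and SCS 1, SCS 2 and SCS 5 held 1350, 1665 and 1486 CPM. The lowest stimulated library was above every naive library and above every sham library but sham 5. Sparc rose in stimulated against naive libraries by a log2 change of 0.44 ± 0.10 (SE, edgeR adjusted p = 0.0133), with the smallest fold and the lowest adjusted p of the 3 genes that passed. The call was lost without naive 2 (edgeR adjusted p = 0.0544) and without SCS 2 (edgeR adjusted p = 0.0607).

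The difference of Sparc in stimulated against sham libraries was 0.26 ± 0.09 (SE, edgeR adjusted p = 0.135). It was 0.33 without sham 5 (edgeR adjusted p = 0.0234), a library singled out for its high values in these genes. In sham against naive libraries it was 0.18 ± 0.09 (SE, edgeR adjusted p = 0.647).

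Postn encodes periostin, a matricellular protein that promotes collagen cross-linking and is made by fibroblasts in scars. Its counts were low, from 28 reads in naive 1 (counting error 18.9%) to 149 reads. Naive 1 to 3 held 1.63, 1.76 and 1.93 CPM, sham 1 to 5 held 2.34, 3.29, 2.12, 3.39 and 7.55 CPM, and SCS 1, SCS 2 and SCS 5 held 5.05, 4.66 and 3.31 CPM. Every sham and every stimulated library was above the naive libraries, and sham 5 was the highest of the 11. The step from naive to sham was within counting error, with naive 3 at 1.93 CPM (counting error 9.53%) and sham 3 at 2.12 CPM (18.3%). Postn rose in stimulated against naive libraries by a log2 change of 1.28 ± 0.39 (SE, edgeR adjusted p = 0.0445).

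The Postn call was lost when any naive library, SCS 1, SCS 2, sham 2 or sham 4 was left out (edgeR adjusted p = 0.0591 to 0.139). In sham against naive libraries its log2 fold change was 1.08 ± 0.37 (SE, edgeR adjusted p = 0.466). That estimate was 0.63 without sham 5. In stimulated against sham libraries it was 0.20 ± 0.34 (SE, edgeR adjusted p = 0.8), and 0.65 without sham 5 (edgeR adjusted p = 0.0941).

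Dcn encodes decorin, a proteoglycan that coats collagen fibrils and binds TGF-beta. Naive 1 to 3 held 134.3, 126.4 and 138.0 CPM, sham 1 to 5 held 128.8, 148.5, 150.7, 89.8 and 153.6 CPM, and SCS 1, SCS 2 and SCS 5 held 183.3, 146.0 and 133.0 CPM. The groups overlapped, and sham 4 was the lowest of all libraries. Dcn had log2 fold changes of 0.02 ± 0.17, 0.20 ± 0.16 and 0.21 ± 0.18 (SE) in the comparisons of sham with naive, stimulated with sham and stimulated with naive libraries (edgeR adjusted p = 0.988, 0.558 and 0.484). The 95% interval of the last ran from -0.20 to 0.62.

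Lum encodes lumican, a proteoglycan of the same family that limits the width of collagen fibrils, and it is the gene listed next to Dcn in the RefSeq gene table. Naive 1 to 3 held 33.8, 24.3 and 27.6 CPM, sham 1 to 5 held 24.4, 23.4, 21.2, 20.9 and 19.8 CPM, and SCS 1, SCS 2 and SCS 5 held 34.2, 22.1 and 19.6 CPM. It was the only one of the 8 with a mean below naive in both other groups, and sham 5 was the lowest sham library. Lum had a log2 change of -0.37 ± 0.16 (SE, edgeR adjusted p = 0.615) in sham against naive libraries. In stimulated against naive libraries it was -0.16 ± 0.18 (SE, edgeR adjusted p = 0.604), and -0.43 without SCS 1 (edgeR adjusted p = 0.0406).

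The comparison of sham with naive libraries asks what differed after paclitaxel and electrode placement. None of the 8 genes passed the edgeR test, where 0.14% of all tested genes did. At an unadjusted p under 0.05 there were 2, Postn (higher) and Lum (lower), against 7.98% of all tested genes. DESeq2 and limma-voom with quality weights passed 0 of the 8, where 0.845% and 0.279% of all tested genes passed. Fold changes were above 0 in 7 of 8 genes, with a median log2 of 0.24, against 51.6% and 0.01 over all tested genes. Without sham 5 they were above 0 in 5 of 8, with a median of 0.03. Fn1 went from 0.44 to 0.17, Col1a1 from 0.23 to 0.02 and Col3a1 from 0.26 to -0.03. Fn1 and Postn were higher in every sham than in every naive library, and over all tested genes 3.96% were higher without overlap. For Postn the step between the groups was within counting error.

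Stimulated and sham rats shared the drug and the electrode, and by their labels differed in the stimulation. Other differences between these samples, such as tissue content, were not tested. None of the 8 passed the edgeR test, where 3.57% of all tested genes did. At an unadjusted p under 0.05 there were 2, Col3a1 and Sparc, against 20.1% of all tested genes. DESeq2 passed 0 and limma-voom with quality weights passed 1, Col3a1 (log2 fold change 0.90, limma adjusted p = 0.0472). Over all tested genes these passed 7.21% and 3.12%. All 8 fold changes were above 0, with a median log2 of 0.31, against 46.8% and -0.01 over all tested genes. Without sham 5 all 8 were above 0, with a median of 0.61. In 0 of the 8 were the stimulated libraries all above the sham libraries, against 6.23% of all tested genes.

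Without sham 5, 3 of the 8 passed (Col3a1, Fn1 and Sparc), where 6.7% of all tested genes passed in either direction. The stimulated libraries were then above the other sham libraries in 4 of 8 genes (Col1a1, Col3a1, Fn1 and Sparc), against 9.83% of all tested genes higher without overlap. The Col1a1 separation was narrow, with SCS 5 at 133.0 CPM and sham 2 at 132.1 CPM. Its log2 fold change without sham 5 was 0.57 (edgeR adjusted p = 0.0909). Sham 5 was left out because it is high in most of these genes, so the calls without it are a description of the other libraries. The plot of left-out libraries shows that no other library moved Col1a1, Col1a2, Col3a1, Fn1 or Postn as far upward.

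**Figure D2:**
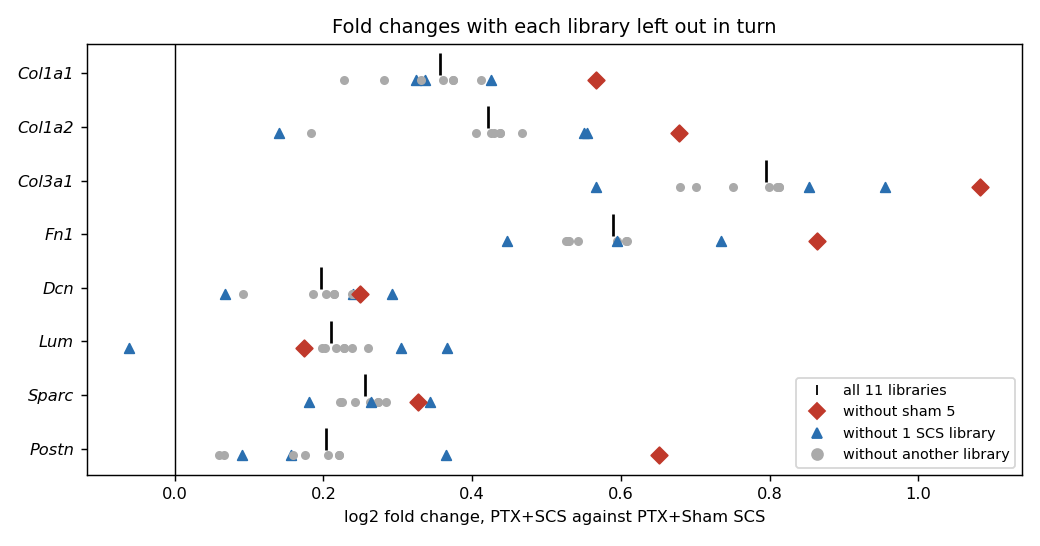
Log2 fold change of PTX+SCS against PTX+Sham SCS (horizontal axis) for each gene with all 11 libraries (bar) and with each library left out in turn (points; diamond, without sham 5; triangles, without 1 SCS library; circles, without another library). The diamond lies at the right end for Col1a1, Col1a2, Col3a1, Fn1 and Postn, at 0.57, 0.68, 1.08, 0.86 and 0.65.

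Stimulated rats differed from naive rats in the drug, the electrode and the stimulation. In this comparison 3 of the 8 genes rose (Fn1, Sparc and Postn) and 0 fell, where 14.9% of all tested genes passed in either direction and 10.1% passed upward. At an unadjusted p under 0.05 there were 4 (Col3a1 beside these), against 29.3% of all tested genes. DESeq2 and limma-voom with quality weights each passed 4, Col3a1 beside the 3, where 17.8% and 15.4% of all tested genes passed. Fold changes were above 0 in 7 of 8, with a median log2 of 0.65, against 46.9% and -0.02 over all tested genes. Col1a1, Col3a1, Fn1, Sparc and Postn were higher in every stimulated than in every naive library, 5 of 8, against 18.1% of all tested genes. The number of the 8 genes that passed was 0 without naive 2 and 0 without SCS 2. Over all tested genes, 6.38% and 6.79% passed in these fits. The number was 1 without any of naive 1, naive 3, sham 2 or sham 4, which was Sparc each time. Over all tested genes, 7.6%, 7.51%, 13.4% and 13.2% passed, in that order. The number was 2 without SCS 1 (Lum and Sparc), without sham 1 or without sham 3 (Sparc and Postn both times). It was 3 without SCS 5 (Fn1, Sparc and Postn) and 4 without sham 5 (Col3a1 beside those 3). In these fits 14.2%, 13.2%, 13.6%, 15.3% and 17.7% of all tested genes passed, in the same order.

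The comparisons share libraries, so their values are set side by side only. Fn1 stood at 0.44 ± 0.27 (log2, SE) between sham and naive, 0.59 ± 0.26 between stimulated and sham and 1.03 ± 0.30 between stimulated and naive libraries. Without sham 5 these were 0.17, 0.86 and 1.03. Postn stood at 1.08, 0.20 and 1.28 in the same order, and at 0.63, 0.65 and 1.28 without sham 5. Col3a1 stood at 0.26, 0.80 and 1.05, and at -0.03, 1.08 and 1.05 without sham 5. Differences between these values were not tested.

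**Figure D3:**
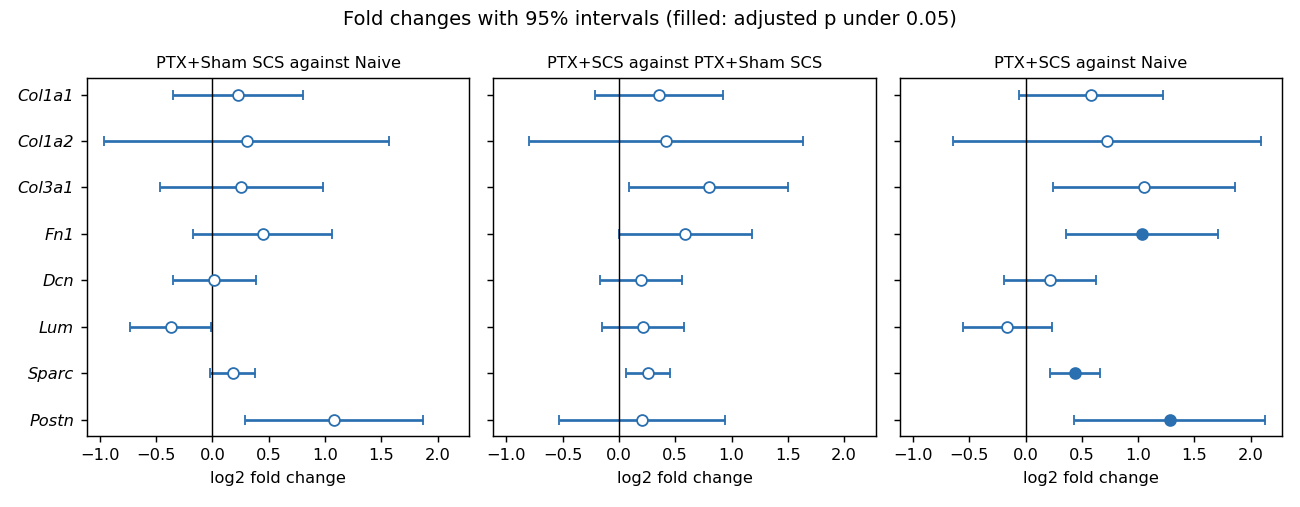
Log2 fold change of each gene in the 3 comparisons, with 95% intervals of the edgeR fit; filled points passed an adjusted p of 0.05. Filled points appear for Fn1, Sparc and Postn in PTX+SCS against Naive and nowhere else, and Col1a2 has the widest interval in each panel.

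The spread among the sham libraries depended on sham 5 for several of these genes. The SD of log2 CPM over the 5 sham libraries was 0.71 for Postn, 0.54 for Col3a1, 0.50 for Col1a1 and 0.46 for Fn1, against a median of 0.14 over all tested genes. Without sham 5 these SDs were 0.33, 0.29, 0.37 and 0.04, against a median of 0.13. Among the 3 naive libraries the same genes had SDs of 0.12, 0.05, 0.08 and 0.07, against a median of 0.09. Lum went the other way, with 0.24 in naive and 0.12 in sham libraries. The shared fit averages over the groups, so the naive libraries lower and the sham libraries raise the spread used for these genes.

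Ratios of counts within a library do not depend on library scaling, and the change of a ratio between libraries does not depend on gene length. Of 7 ratios computed, with no test, Col1a1 to Col3a1 was 1.08 to 1.18 in naive, 0.98 to 1.21 in sham and 0.66 to 0.95 in stimulated libraries. Every stimulated library was below all 8 others, but SCS 5 (0.951) was only just below sham 5 (0.983). The counts behind these ratios had counting errors of 1.68% to 1.82% each, so that step is not clear of counting error. Compared with the naive libraries, Col3a1 was high relative to Col1a1 in every stimulated library. Dcn to Col3a1 was 1.47 to 1.58 in naive and 0.77 to 0.95 in stimulated libraries, with sham libraries from 0.86 to 2.17. Dcn to Lum was 3.97 to 5.21 in naive, 4.30 to 7.75 in sham and 5.36 to 6.79 in stimulated libraries.

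Col1a1 to Col1a2 ran from 10.7 to 80.3 over the 11 libraries, a 7.53-fold range, whereas Col1a1 to Col3a1 spanned 1.84-fold. As background, both type I chains are parts of 1 helix. With its name unchecked, the row listed as Col1a2 is described here by its ID and listed name only, and the counts of genes that passed do not rest on it, since it passed in 0 comparisons.

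**Figure D4:**
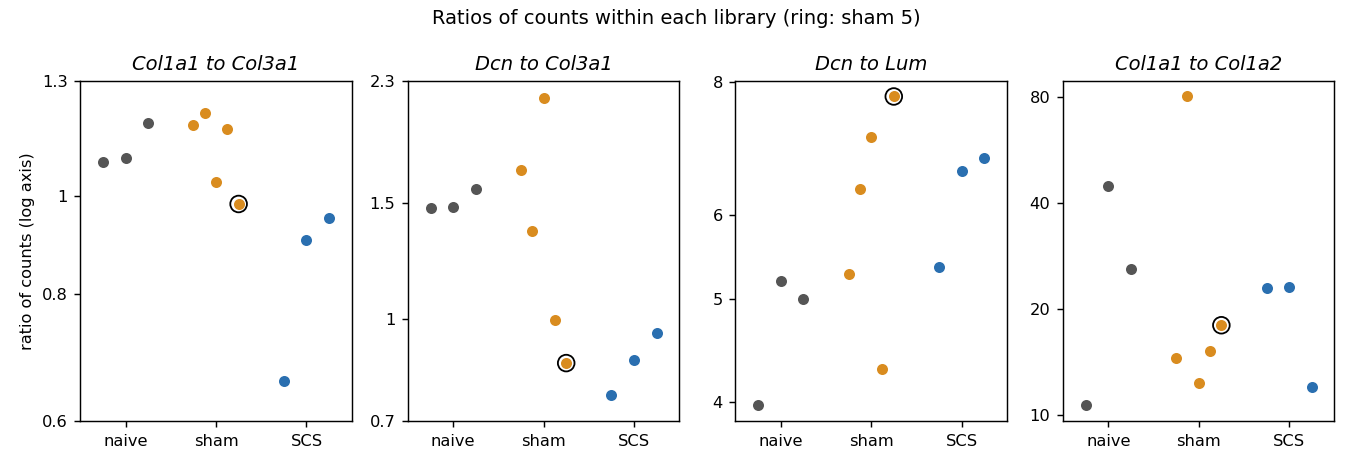
Ratio of counts within each library (vertical axes, logarithmic) for 4 pairs of genes, with 1 point per library by group; the ring marks sham 5. SCS points of Col1a1 to Col3a1 (0.66 to 0.95) all lie below the naive and sham points, SCS 5 only just below sham 5. Col1a1 to Col1a2 spans 10.7 to 80.3.

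To see which genes varied together apart from the groups, log2 CPM was taken as the deviation from its group mean and correlated over the 11 libraries for all 28 pairs. P-values are two-sided, exact over the 4320 permutations within groups, and adjusted over the 28 pairs. Col1a1 and Col3a1 varied together (Pearson r 0.917, exact permutation p = 0.000694, adjusted 0.0194; Spearman rho 0.927, p = 0.00139, adjusted 0.0389). Without sham 3 and sham 5, the libraries farthest from the median, r was 0.774.

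Postn followed both collagens. With Col3a1 r was 0.940 (exact permutation p = 0.00324, adjusted 0.0302) and with Col1a1 it was 0.923 (exact permutation p = 0.00208, adjusted 0.0292). The rank correlations of Postn with Col3a1 (rho 0.736, exact permutation p = 0.0384, adjusted 0.359) and with Col1a1 (rho 0.809, exact permutation p = 0.0125, adjusted 0.175) did not pass. Without the 2 farthest libraries r was 0.854 (SCS 1 and sham 5 left out) and 0.731 (sham 3 and sham 5 left out).

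No other pair passed. Fn1 with Postn had r 0.855 (exact permutation p = 0.0653, adjusted 0.374; rho 0.664, p = 0.0637, adjusted 0.446), which was 0.354 without sham 5 and 0.50 without SCS 2 and sham 5. Fn1 with Sparc had r 0.718 (exact permutation p = 0.0775, adjusted 0.374; rho 0.509, p = 0.199, adjusted 0.507), which was -0.005 without SCS 2 and sham 5, so this relation rests on those libraries. The pair of proteoglycans, Dcn and Lum, had r 0.419 (exact permutation p = 0.209, adjusted 0.587; rho 0.564, p = 0.119, adjusted 0.503), and 0.360 without SCS 1 and sham 4. Col1a1 with Col1a2 had r -0.014 (exact permutation p = 0.973, adjusted 0.999; rho -0.164, p = 0.676, adjusted 0.892), and -0.548 without sham 3 and sham 5. The 3 pairs of Col1a1, Col3a1 and Postn thus kept r of 0.799 to 0.833 without sham 5.

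**Figure D5:**
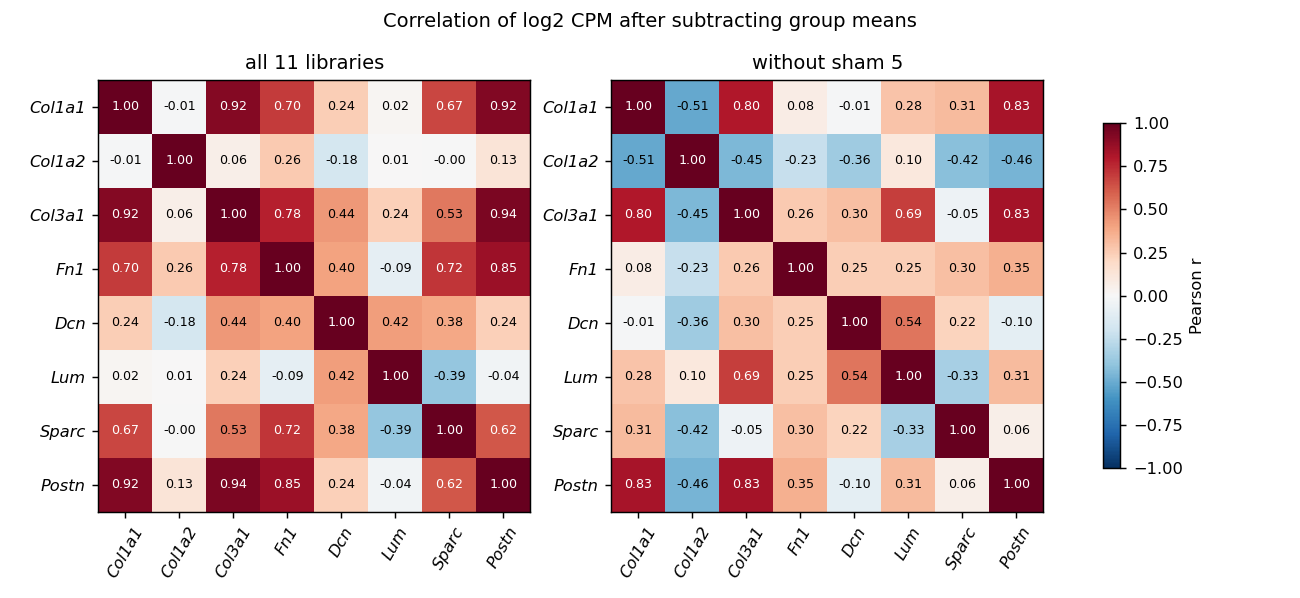
Pearson r between genes over libraries, on log2 CPM after subtracting group means, with all 11 libraries (left) and without sham 5 (right); colour runs from -1 to 1. Col1a1, Col3a1 and Postn keep r of at least 0.799 with each other in the right panel, while Fn1 with Col1a1 goes from 0.697 to 0.077.

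Among 14460 genes with a mean of at least 1 CPM, the genes whose log2 CPM was most like the 8 over the 11 libraries were ENSRNOG00000018087 (mean Pearson r 0.681, from -0.025 to 0.950 over the 8) and ENSRNOG00000004107 (mean r 0.680). These values include the differences between groups. ENSRNOG00000018087 had means of 249.9, 330.6 and 538.4 CPM in naive, sham and stimulated libraries. ENSRNOG00000004107 had 129.6, 136.8 and 157.9 CPM. The files do not pair these IDs with gene names.

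Electrode placement can add meningeal tissue to a cord sample. The labelled tissue and its content of meninges, vessels, blood or nerve root could not be read from marker genes, because no marker ID could be matched to a name. Their part in these differences was not tested.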

How the data were processed

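Raw counts for each Ensembl rat gene ID were deposited by the authors as whole numbers. HISAT2, featureCounts, DESeq2 and the build rn6 are named in the submitters' processing notes; for their versions, the annotation release and the strand setting nothing is given in the sources used here, so counts of overlapping or antisense genes are uncertain. Columns were matched to samples by title, and 17 columns of other samples were not used. Libraries were prepared with a directional kit, per the labels' protocols.

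The members and lists were chosen with earlier results of these data known. All 8 listed genes are named. Lists of other matrix genes and cell type markers, fixed by symbol, could not be tested, since 0 of the 47357 genes in the gene table carry an Ensembl ID. Genes of like pattern are those with the highest mean Pearson r with the 8. Ratios and the motifs were chosen after values were seen.

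Genes were filtered by edgeR's filterByExpr (edgeR 4.0.16, R 4.3.3), libraries scaled by TMM, and all 11 libraries fitted in 1 quasi-likelihood model with a term per group (8 residual degrees of freedom, robust estimation). Tests were two-sided, with Benjamini-Hochberg adjustment over 15758 genes and a threshold of 0.05. SE is the log2 fold change divided by the square root of F. Log2 CPM used a prior count of 2. Alternatives were other scalings, no filter, DESeq2 1.42.0, limma 3.58.1 with quality weights, 2 groups only, the replicate number as a block, and each library left out. Since no label states separate rats, p-values measure only the spread between samples, which may be technical. Counting errors cover counting only.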

Additional observations from a re-analysis of the deposited data

Results flagged for a closer look

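Fn1 in sham 5 was far from the other sham libraries: its gap to the next library on the log2 CPM scale was 0.914 of the range of the 5 sham libraries, above Dixon's critical value of 0.71. Each of the 8 genes was tested this way in the sham group, and about 1 such group in 20 passes by chance. Sham 5 held 191.4 CPM and sham 1 to 4 held 92.5 to 98.4 CPM.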

How the results depend on the processing

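In sham against naive libraries 0 of the 8 genes passed under every alternative run, where 0.0376% to 0.845% of all tested genes passed. With each library left out in turn, 0 to 3 of the 8 passed in stimulated against sham and 0 to 4 in stimulated against naive libraries. Over all tested genes these fits passed 0.224% to 6.7% and 6.38% to 17.7%. In stimulated against sham, limma-voom with quality weights gave 1, where 3.12% of all tested genes passed. The replicate block and the fit of only the 2 groups compared gave 0 each in that comparison. Over all tested genes these 2 fits passed 0.0317% and 0.899%, against 3.57% in the main fit. In stimulated against naive, DESeq2 and limma-voom with quality weights gave 4 each, and no filter on low counts gave 1. The fit of only the 2 groups compared gave 5 (Col1a1 and Col3a1 beside the 3). Over all tested genes these fits passed 17.8%, 15.4%, 8.87% and 12.8%, in the same order, against 14.9% in the main fit. With the replicate number as a block 0 of the 8 passed in stimulated against naive, where 4.26% of all tested genes did. The log2 fold changes were then 0.89 for Fn1, 0.38 for Sparc and 1.03 for Postn. Deviations of same-numbered libraries correlated at -0.174 to 0.13. Libraries with different numbers were not compared in this way, so whether the numbers pair the samples was not tested. The cause of these changes in the calls was not tested, and each fit with 1 library left out also holds fewer libraries. The upper-quartile scaling gave 2, without Fn1 (edgeR adjusted p = 0.0506), where 15.1% of all tested genes passed. Over 18 alternatives Sparc passed in 15 of stimulated against naive, Postn in 9 and Fn1 in 6 (adjusted p 0.000531 to 0.0685, 0.00297 to 0.219 and 0.000252 to 0.213).

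Signs turned for 4 values, none of which passed in any alternative. In sham against naive these were Dcn (0.02 with all libraries), at -0.0341 with quality weights and -0.0351 to 0.1367 with 1 library left out, Col1a2 (0.30), at -0.0065 with the replicate block and -0.0658 to 0.9627 with 1 library left out, and Col3a1 (0.26), at -0.0295 to 0.3734 with 1 left out. In stimulated against sham it was Lum (0.21), at -0.061 to 0.3662 with 1 left out. Depth limits Postn and Col1a2 most, with 28 and 26 reads at the lowest.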
